A study of Mus musculus with 6 samples.

Results

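The PYHIN family of the mouse, also called the Ifi200 family, was followed in CD4+ T cells of CBS-KO and WT mice. The list held 10 genes of the family: Ifi202b, Ifi203, Ifi204, Ifi205, Ifi206, Ifi207, Ifi213, Ifi214, Mndal and Aim2. A probe set of the array counted for a member when the array's gene annotation named that member and no other gene. By this rule 8 of the 10 members had a probe set, 1 each, out of 19937 genes that a probe set named alone. Ifi204 was named on 1 probe set shared with Ifi211, and no probe set named Mndal. The family was selected on the measured differences between CBS-KO and WT arrays, because its genes moved in both directions. The members' differences are therefore given below as a description, without a test.

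CBS-KO mice are deficient in CBS (cystathionine beta-synthase), which condenses homocysteine with serine and is a source of hydrogen sulfide. There were 3 CBS-KO arrays, set against 3 WT arrays, all from CD4+ T cells of C57BL/6 mice at 6 weeks of age and all called biological replicates by the labels. The labels name no treatment, give neither the sex of the animals nor the way the cells were isolated, and do not say whether CBS was missing from the T cells alone. Values are the deposited linear intensities, or log2(intensity + 16), and 3 arrays in a group limit their precision.

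PYHIN proteins carry, in most members, a pyrin domain that binds other pyrin domains and 1 or 2 HIN domains that bind DNA. Aim2 uses them to detect DNA in the cytosol and to gather the adaptor Pycard and caspase-1 into an inflammasome. The mouse genes form a single cluster on chromosome 1, and many of them are induced by interferon. In the mouse annotation used for gene order, 13 protein-coding PYHIN genes followed each other with 0 other protein-coding genes between them: Aim2, Ifi206, Ifi214, Ifi213, Ifi209, Ifi208, Ifi207, Ifi204, Mndal, Ifi211, Ifi203, Ifi202b and Ifi205.

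The promoters of the family are shown first, because they are independent of how the genes were measured. RefSeq start sites (build GRCm38.p6) were found for 9 of the 10 members and for 3 further PYHIN genes, each with a window of 300 bases from 250 before to 50 after the start. The core of the element bound by interferon-activated factors was searched on both strands as GAAA, 2 bases of any kind and a second GAAA. It was present in at least 1 window of 7 of the 9 members and of 2 of the 3 other genes, against 3.99% of 27025 genes with a promoter window. The match and its surroundings are printed for the genes that hold it, 5′ to 3′ on the strand of the gene, with the match in capitals and 15 bases before and 20 after it.
Ifi206 (chr1:173491329-173491373, minus strand): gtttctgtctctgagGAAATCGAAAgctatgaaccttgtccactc
Ifi213 (chr1:173599316-173599360, minus strand): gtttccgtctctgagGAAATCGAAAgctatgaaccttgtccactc
Ifi208 (chr1:173673592-173673636, plus strand): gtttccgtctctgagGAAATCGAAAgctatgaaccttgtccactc
Ifi214 (chr1:173536007-173536051, minus strand): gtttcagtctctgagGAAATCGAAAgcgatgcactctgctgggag
Mndal (chr1:173880194-173880238, minus strand): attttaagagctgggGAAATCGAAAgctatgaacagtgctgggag
Ifi203 (chr1:173942498-173942542, minus strand): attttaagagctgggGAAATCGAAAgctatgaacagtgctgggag
Ifi207 (chr1:173741821-173741865, minus strand): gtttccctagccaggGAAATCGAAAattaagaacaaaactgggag
Ifi205 (chr1:174031860-174031904, minus strand): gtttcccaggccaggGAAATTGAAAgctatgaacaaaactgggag
Ifi211 (chr1:173913054-173913098, minus strand): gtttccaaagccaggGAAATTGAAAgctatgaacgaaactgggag

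The matches began between 35 bases (Ifi203) and 134 bases (Ifi205) before the start site. Ifi205 held a second match after its start, on the opposite strand, and a second start site of Mndal had a match of its own. The windows of Aim2 and Ifi202b, and that of Ifi209, did not hold the paired GAAA motif. Ifi203 also had a second start site, and its printed match came from that window, while the window of its first start site held none. Such a match describes letters and does not show that a factor binds.

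Beyond the motif, the promoters fell into sets of close copies. In local alignments, Ifi213 and Ifi208 were 98.9% identical over 285 columns, Ifi206 and Ifi213 98.5% over 267 columns, and Ifi214 and Ifi209 95.7% over 300 columns. Ifi207 and Ifi205 were 86.6% identical over 209 columns, Ifi211 and Ifi205 93.5% over 201, and Ifi207 and Ifi211 87.5% over 297. Mndal and Ifi203 were 94.3% identical over 299 columns. Between the sets of Ifi206 and Ifi214 similarity was lower, with 75.2% identity over 145 columns. The sets of Ifi206, Ifi213 and Ifi208 and of Ifi214 and Ifi209 held genes that were lower in CBS-KO. In the set of Ifi207, Ifi205 and Ifi211, Ifi207 and Ifi205 were higher, and Ifi211 had no probe set of its own. Of Mndal and Ifi203, Mndal had no probe set and Ifi203 was not past the threshold of the fit below. The paired GAAA motif was present in windows of genes that were lower and of genes that were higher. A link between promoter copies and direction was not tested. The full windows are printed for the member with the largest fall, the member with the largest rise and the member near the lowest values of the table in both groups, with matches of the paired GAAA motif in capitals.
Ifi214 (chr1:173535908-173536207, minus strand): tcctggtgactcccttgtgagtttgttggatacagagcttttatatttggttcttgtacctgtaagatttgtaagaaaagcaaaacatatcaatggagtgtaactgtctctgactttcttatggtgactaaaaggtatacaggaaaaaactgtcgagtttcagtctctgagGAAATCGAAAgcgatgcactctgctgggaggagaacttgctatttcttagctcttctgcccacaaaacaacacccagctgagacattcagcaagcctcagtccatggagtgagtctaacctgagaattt
Ifi205 (chr1:174031706-174032005, minus strand): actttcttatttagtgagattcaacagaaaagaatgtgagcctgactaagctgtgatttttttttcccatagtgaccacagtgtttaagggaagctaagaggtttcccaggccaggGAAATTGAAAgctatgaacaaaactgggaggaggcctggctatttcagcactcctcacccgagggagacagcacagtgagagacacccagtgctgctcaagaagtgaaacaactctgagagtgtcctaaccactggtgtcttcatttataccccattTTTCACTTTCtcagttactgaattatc
Ifi202b (chr1:173982795-173983094, minus strand): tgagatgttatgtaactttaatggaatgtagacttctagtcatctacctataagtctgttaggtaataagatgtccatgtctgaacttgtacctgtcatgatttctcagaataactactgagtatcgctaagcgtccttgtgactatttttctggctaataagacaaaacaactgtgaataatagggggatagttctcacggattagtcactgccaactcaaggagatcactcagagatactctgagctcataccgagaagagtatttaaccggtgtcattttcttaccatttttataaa

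Sex-linked genes split the CBS-KO arrays. The log2 level of Xist, which acts in X inactivation in females, was 6.02 on CBS-KO 1, 6.18 on CBS-KO 2 and 12.23 on CBS-KO 3, against 12.61 to 12.68 on the WT arrays. Eif2s3y, on the Y chromosome, gave 9.41, 9.19 and 4.87 in the same order, against 4.87 to 4.90 in WT, so genotype and sex were partly confounded. The targeted gene did not separate the groups, with log2 levels of 7.25, 7.63 and 7.35 for Cbs in CBS-KO 1 to 3 and 7.37, 7.48 and 7.19 in WT 1 to 3. Array medians lay between 149 and 171.

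Of the 8 members with a probe set, 7 passed the filter on low values (mean over the 6 arrays above the 40th percentile of all probe sets). In the fit over all probe sets (limma, Benjamini-Hochberg adjusted p below 0.05), 2 member probe sets were counted as higher in CBS-KO and 3 as lower, where 5.09% and 4.47% of 20856 tested probe sets were (9.57% in either direction). The CBS-KO arrays lay wholly above the WT arrays for 2 members and wholly below for 5, where 15% and 21.7% of tested probe sets did so. Because these are the values the family was picked for, nothing is read from those counts. The median log2 difference over the 7 was -0.59, beside -0.05 over all tested probe sets. The counts changed when single arrays were left out, as did those over all tested probe sets. Without WT 1, 1 member was higher and 2 lower, beside 68 and 25 of all tested probe sets. With WT 2 left out the members gave 1 and 1, beside 54 and 19 of all. Without CBS-KO 1 they gave 2 and 2, beside 119 and 47. When CBS-KO 2 was left out they gave 2 and 4, beside 3396 and 3031.

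**Figure D1:**
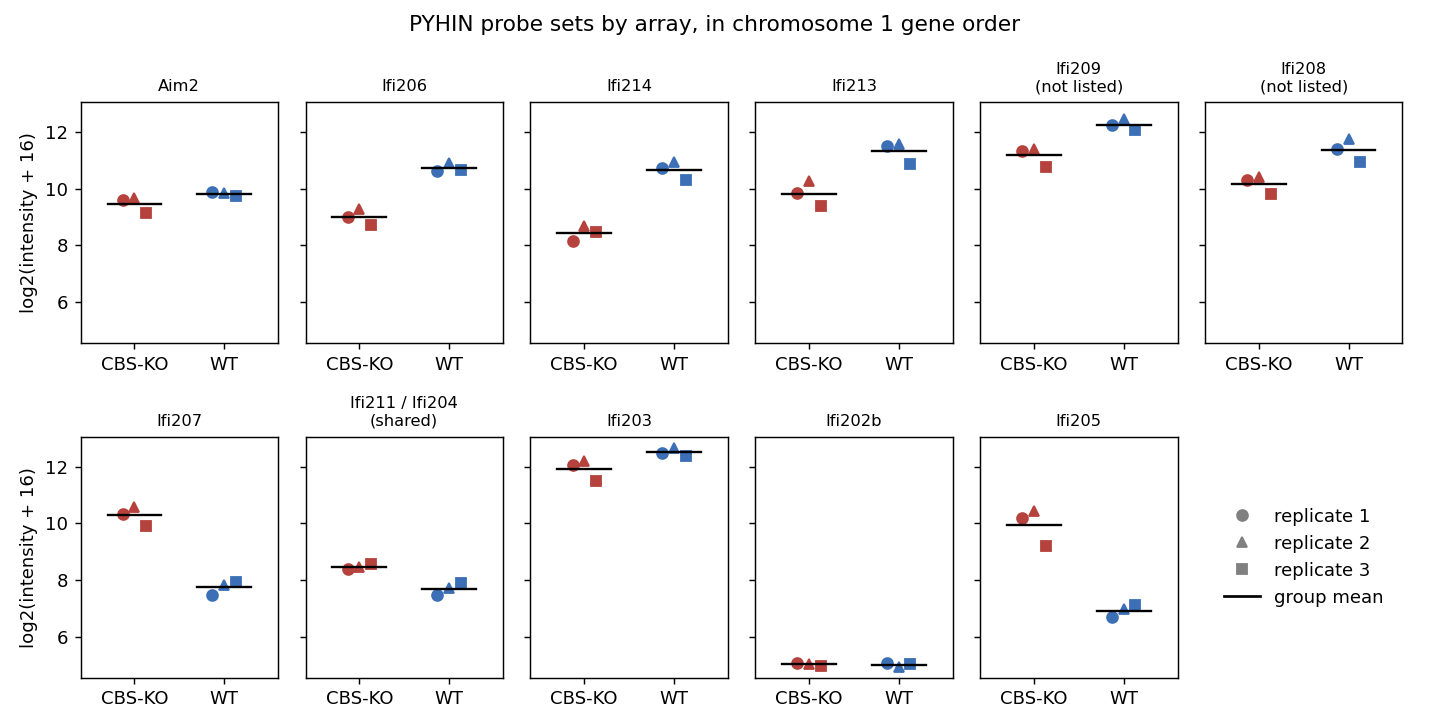
Log2(intensity + 16) of each PYHIN probe set on each array, with CBS-KO arrays left and WT arrays right in every panel, symbols for the replicate number and a line for the group mean (n = 3). Panels follow the gene order on chromosome 1, and levels of different panels cannot be compared. CBS-KO arrays lie above WT for Ifi207, Ifi205 and the probe set shared by Ifi211 and Ifi204, and at the WT level for Ifi202b. For the other probe sets they lie below.

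Ifi214 showed the largest fall of the family. Its intensity was 272, 392 and 339 in CBS-KO 1 to 3, against 1695, 1928 and 1244 in WT 1 to 3. The groups were far apart, and the lowest WT array was WT 3. The log2 levels of 8.44 ± 0.25 in CBS-KO and 10.65 ± 0.32 in WT (SD, n = 3 each) differed by -2.22 (SE 0.21), which is 4.65-fold lower in CBS-KO. Its probe set stayed past the threshold in every alternative fit.

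Ifi206, the gene next to it, had intensities of 499, 604 and 405 in CBS-KO 1 to 3, against 1569, 1914 and 1598 in WT 1 to 3. The groups were wide apart, with CBS-KO 3 lowest. The log2 difference was -1.73 (SE 0.17), or 3.32-fold lower in CBS-KO. Ifi213, the next gene in the cluster, had 897, 1216 and 652 in CBS-KO, against 2885, 3052 and 1838 in WT. The groups did not overlap here either, with the third replicate lowest in both of them. Its log2 difference was -1.49 (SE 0.28), or 2.80-fold lower. Ifi213 was the most variable of the 3 genes, with a coefficient of variation of 30.7% in CBS-KO and 25.4% in WT. It was no longer counted as lower when CBS-KO 1, WT 1 or WT 2 was left out or with no filter, nor was Ifi206 when WT 2 was left out, while their differences stayed negative throughout (-1.93 to -1.26 for Ifi213, -2.01 to -1.59 for Ifi206).

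Ifi208 and Ifi209, which lie directly after Ifi213 and were not on the member list, moved the same way. Ifi208, whose promoter is nearly that of Ifi213, had 1261, 1349 and 885 in CBS-KO 1 to 3, against 2679, 3417 and 1947 in WT 1 to 3. Its log2 difference was -1.18 (SE 0.25, limma adjusted p = 0.0365), with no overlap of the groups. Ifi209, whose promoter is a close copy of that of Ifi214, had 2557, 2712 and 1734 in CBS-KO, against 4851, 5575 and 4309 in WT. Its log2 difference was -1.09 (SE 0.19, limma adjusted p = 0.0246), again without overlap. Both lost the call when single arrays were left out. For Ifi208 the limma adjusted p was 0.114 without CBS-KO 1, 0.0577 without CBS-KO 3, 0.147 without WT 1 and 0.134 without WT 2, and 0.0639 with no filter. For Ifi209 it was 0.0818 without CBS-KO 1, 0.111 without WT 1, 0.114 without WT 2 and 0.0558 without WT 3.

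Ifi205 lies at the far end of the cluster and had the largest rise. In mouse macrophages its product is known to control expression of the inflammasome adaptor Pycard. Its intensity was 1163, 1377 and 573 in CBS-KO 1 to 3, against 87.3, 109 and 123 in WT 1 to 3. The lowest CBS-KO array, CBS-KO 3, was still above every WT array. The log2 levels of 9.95 ± 0.66 in CBS-KO and 6.92 ± 0.21 in WT (SD, n = 3 each) differed by 3.03 (SE 0.33), which is 8.15-fold higher. The WT mean lay below the filter level of 6.99, so Ifi205 passed the filter only through its CBS-KO arrays and the size of its rise depends on the unknown background of the array.

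Ifi207, the gene after Ifi208, was higher in CBS-KO. It had intensities of 1283, 1532 and 951 in CBS-KO 1 to 3, against 163, 209 and 230 in WT 1 to 3. The lowest CBS-KO array, again CBS-KO 3, was well above the highest WT array. The log2 difference was 2.54 (SE 0.21), or 5.80-fold higher in CBS-KO. Ifi207 was past the threshold in every alternative fit, whereas Ifi205 was not without WT 1 or without WT 2. The probe set shared by Ifi211 and Ifi204 (Ifi204 encodes the mouse relative of the human DNA sensor IFI16) had 322, 340 and 361 in CBS-KO, against 161, 193 and 222 in WT. Its log2 difference was 0.79 (SE 0.14), with no overlap of the groups, and which of both genes gave the signal cannot be told apart.

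Ifi203 and Aim2 had the smallest differences among the members that passed the filter. Ifi203 had 4260, 4725 and 2882 in CBS-KO 1 to 3, against 5771, 6532 and 5274 in WT 1 to 3. The groups did not overlap, but the gap was small beside the spread of the CBS-KO arrays, and the log2 difference was -0.59 (SE 0.19). Aim2, the cytosolic DNA sensor, had 764, 805 and 549 in CBS-KO 1 to 3, against 924, 900 and 849 in WT 1 to 3. Only CBS-KO 3 was far from the WT arrays, and the log2 difference was -0.35 (SE 0.17). Neither was past the threshold in the fit. Ifi203 was counted as lower in 3 alternative fits (replicate block, the term for Y-linked signal, and without CBS-KO 2), and Aim2 in 1, with the term for Y-linked signal. That term gave -1.01 for Ifi203 and -0.68 for Aim2, whereas leaving out CBS-KO 3 gave -0.38 and -0.18.

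Ifi202b, whose product lacks a pyrin domain and blocks Aim2, was near the lowest values of the table in both groups. Its intensity was 17.4, 17.2 and 15.1 in CBS-KO 1 to 3, against 17.4, 14.9 and 17.3 in WT 1 to 3, where the lowest value of the whole table was 7.44. The groups overlapped completely, with a log2 difference of 0.00. It was the only member that did not pass the filter. The level of Ifi202b is known to differ among inbred mouse strains and to be low in C57BL/6, the strain both groups are labelled with; the genotype of the locus was not analysed here.

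The order of the 3 CBS-KO arrays was shared by most members. CBS-KO 2 was the highest CBS-KO array for all 7 members that passed the filter, and CBS-KO 3 the lowest for 6 of them, Ifi214 being the exception. This held for members that were higher in CBS-KO and for members that were lower. The order was not particular to them: the array medians, at 161, 171 and 149 in CBS-KO 1 to 3, and the CD4 T cell marker list had the same one. In the array with a WT-like Xist level, CBS-KO 3, the log2 differences from the WT mean were 2.28 for Ifi205 and 2.17 for Ifi207, and -2.18 for Ifi214, -2.01 for Ifi206 and -1.93 for Ifi213. The directions were the same in that array as in the other CBS-KO arrays. Several members are near copies of each other, and how far a probe set reads a paralog is not known from the files.

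**Figure D2:**
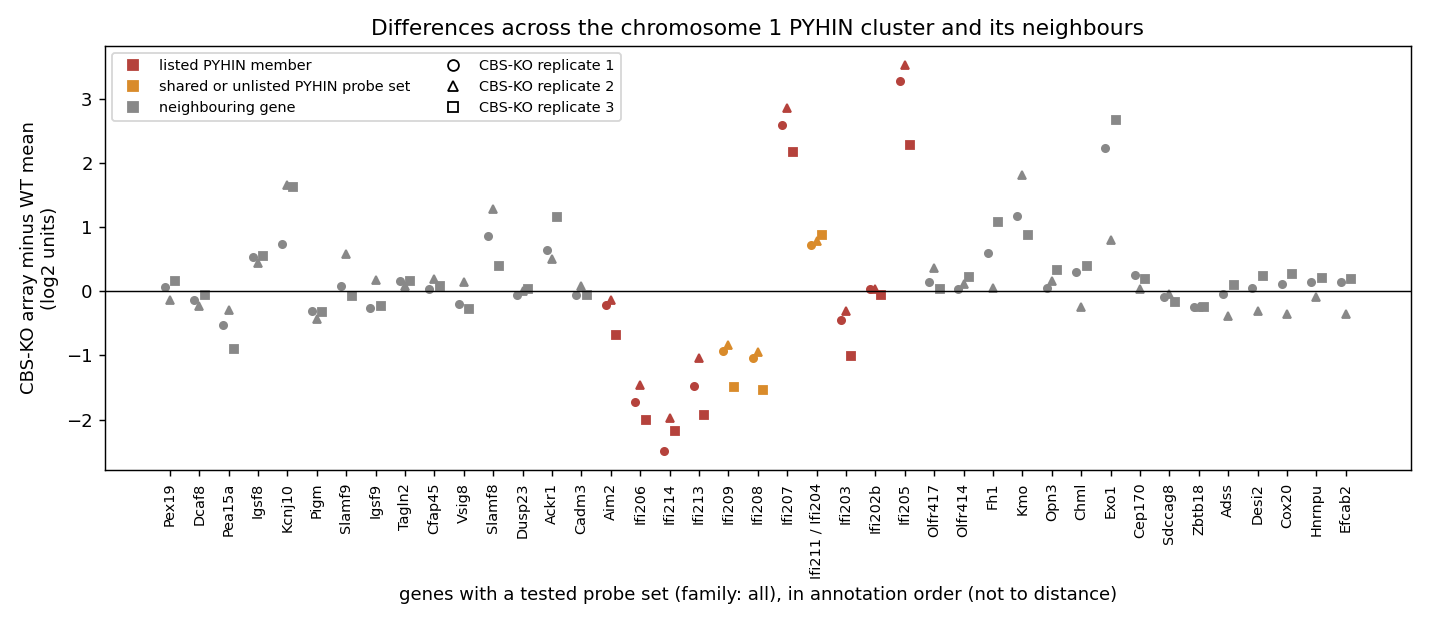
Log2 difference of each CBS-KO array from the WT mean for the PYHIN probe sets and for the 15 nearest genes with a tested probe set on each side, in annotation order and not to distance. Symbols give the CBS-KO replicate, and colours separate listed members, shared or unlisted PYHIN probe sets and neighbouring genes. Ifi206 to Ifi208 lie below 0, Ifi207 and Ifi205 far above it, and 27 of the 30 neighbours lie within 1 log2 unit of 0 on average.

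The genes flanking the cluster mostly lay near the WT level. Of 30 neighbours, 15 on each side, 1 was higher in CBS-KO and 0 were lower in limma, beside the 5.09% and 4.47% of all tested probe sets. At an unadjusted p below 0.05, 6 were higher and 2 lower, where 13.6% and 17.3% of all tested probe sets were (30.9% in either direction). Their median log2 difference was 0.09, and 27 of 30 differed by less than 1 log2 unit. The one called was Kcnj10, which encodes an inwardly rectifying potassium channel (1.34, SE 0.27, limma adjusted p = 0.0352). When single arrays were left out its adjusted p was 0.0646 without CBS-KO 3, 0.147 without WT 1, 0.141 without WT 2 and 0.0724 without WT 3. Without CBS-KO 2, 5 neighbours were higher and 1 lower, beside 3396 and 3031 of all tested probe sets. Cadm3, the gene just before Aim2 and a cell adhesion gene, differed by -0.01 (SE 0.09). Ackr1, the gene before Cadm3, differed by 0.76 (SE 0.19, limma adjusted p = 0.0551), with no overlap of the groups. The WT mean of Ackr1 lay below the filter level. Exo1, a DNA repair exonuclease gene farther off, had the largest difference of the 30, 1.90 (SE 0.46), without passing (limma adjusted p = 0.0506).

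The pathways around the family were read next, from gene lists. Interferon-induced genes outside the family were lower in CBS-KO more often than higher. Of 33 tested genes, 14 fell and 1 rose (limma), where 4.47% and 5.09% of all tested probe sets did, with a median log2 difference of -0.60 beside -0.05 over all tested probe sets. Oasl2, an antiviral oligoadenylate synthetase-like gene, had intensities of 123, 165 and 122 in CBS-KO 1 to 3, against 650, 905 and 642 in WT 1 to 3. The RNA-binding antiviral genes Ifit1 and Ifit3 fell by 1.41 (SE 0.14) and 1.07 (SE 0.12), and Ddx60, a helicase gene of the RNA sensing pathway, fell by 1.46 (SE 0.15). Ifi27l2a and Rtp4 fell by 1.42 (SE 0.19) and 1.28 (SE 0.18). The gene that rose, named after its value was seen, was Isg20, an interferon-induced exonuclease gene (1.01, SE 0.14). Leaving out CBS-KO 1 gave 4 lower and 0 higher, leaving out WT 1 gave 2 and 0, WT 2 gave 1 and 0, and WT 3 gave 8 and 1. Over all tested probe sets the same fits, in that order, gave 47 lower and 119 higher, 25 and 68, 19 and 54, and 246 and 426. Of the 6 genes named as lower, Oasl2 kept its call in every alternative fit, Ifit1 lost it without WT 2, Ddx60 and Ifi27l2a without WT 1 or WT 2, and Ifit3 and Rtp4 without WT 1, WT 2 or CBS-KO 1. The highest limma adjusted p among those fits was 0.0914.

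Among receptors and signalling genes of the interferon pathway, 2 of 19 tested genes rose and 2 fell, with a median of -0.24. Of all tested probe sets, 5.09% were called higher and 4.47% lower. Irf9, the DNA-binding part of the complex that acts on paired GAAA elements, fell by 0.68 (SE 0.12), and Usp18, a negative regulator of the receptor, fell by 0.74 (SE 0.14). Irf8, an interferon regulatory factor of myeloid and B cells, rose by 1.43 (SE 0.29), with intensities of 2180, 2285 and 1581 in CBS-KO 1 to 3, against 576, 595 and 1131 in WT 1 to 3. Ifngr1, a chain of the interferon gamma receptor, rose by 0.51 (SE 0.09). With CBS-KO 1, WT 1 or WT 2 left out, 0 genes of the list passed, and the limma adjusted p of these 4 reached at most 0.139. With CBS-KO 2 left out the counts were 2 higher and 9 lower, and with WT 3 left out 1 and 1. Over all tested probe sets they were 3396 and 3031 without CBS-KO 2, and 426 and 246 without WT 3. The totals were lower still without CBS-KO 1, WT 1 or WT 2.

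Among genes of cytosolic DNA sensing, the function of Aim2 and of IFI16, 3 of 20 fell and 0 rose in limma, where 4.47% and 5.09% of all tested probe sets did, with a median of 0.03. At an unadjusted p below 0.05, 8 were lower and 0 higher, where 17.3% and 13.6% of all tested probe sets were. The 3 genes that fell in limma after adjustment were Zbp1, Ikbke and Samhd1. Zbp1 is a sensor of Z-form nucleic acid (-0.98, SE 0.21), and Ikbke a kinase of the interferon response (-0.87, SE 0.20). Samhd1 hydrolyses nucleotides (-0.62, SE 0.14). Zbp1 is also in the interferon-induced list and was counted there again. Cgas, the sensor that feeds Sting1, had 190, 137 and 233 in CBS-KO 1 to 3, against 147, 124 and 157 in WT 1 to 3, and the groups overlapped. With CBS-KO 1 or any one WT array left out, 0 genes of the list passed (limma adjusted p at most 0.165 for these 3). With CBS-KO 3 left out 2 fell, and with CBS-KO 2 left out 6 fell and 3 rose. Over all tested probe sets 560 fell and 817 rose without CBS-KO 3, and 3031 and 3396 without CBS-KO 2. Without CBS-KO 1 or any one WT array, fewer of all tested probe sets passed than with all arrays.

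Of 12 tested inflammasome genes, 2 rose and 1 fell, beside 5.09% and 4.47% of all tested probe sets, with a median of 0.06. For 3 of the 12, Il1b among them, the WT mean lay below the filter level. The gene that fell was Pycard, the adaptor of Aim2, with 827, 751 and 628 in CBS-KO 1 to 3, against 1345, 1378 and 1380 in WT 1 to 3 (log2 difference -0.89, SE 0.13, limma adjusted p = 0.0167). Its groups did not overlap. Il1b, a cytokine gene whose product caspase-1 cleaves, rose by 2.34 (SE 0.53), with 431, 1503 and 311 in CBS-KO 1 to 3, against 94.6, 106 and 111 in WT 1 to 3. CBS-KO 2 was far above the other CBS-KO arrays, and the WT mean lay below the filter level, so the gene passed the filter only through its CBS-KO arrays. Naip5, a receptor gene for bacterial flagellin, rose by 0.93 (SE 0.21). Casp1 itself differed by 0.06 (SE 0.11). With CBS-KO 1 or any one WT array left out, 0 genes of the list passed, and the limma adjusted p of Pycard was at most 0.0982. With CBS-KO 2 left out, 4 rose and 3 fell, beside 3396 and 3031 of all tested probe sets. Without CBS-KO 1 or any one WT array, fewer of all tested probe sets passed than with all arrays.

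**Figure D3:**
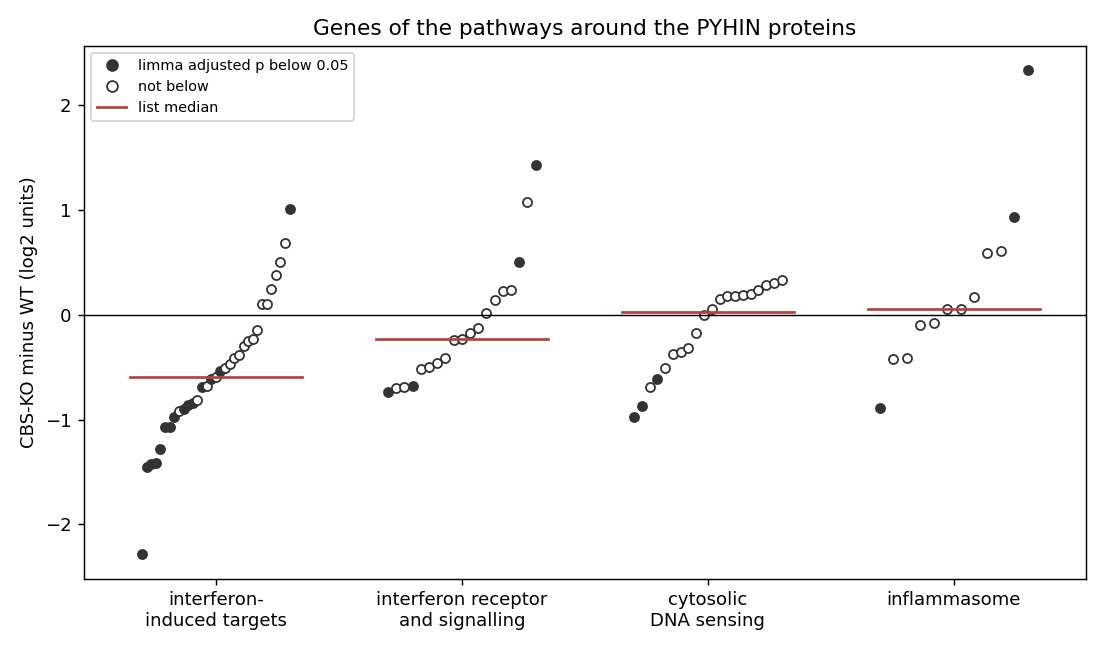
Log2 difference, CBS-KO minus WT, of each tested gene in 4 lists, ordered by value within a list, with filled points for a limma adjusted p below 0.05 and a line at the list median. The interferon-induced genes reach from -2.29 (Oasl2) to 1.01 (Isg20) with a median of -0.60, and the medians of the DNA sensing and inflammasome lists are near 0.

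Marker lists of other cell types and of CD4 T cells were read on the same arrays. Of all tested probe sets, 5.09% were called higher and 4.47% lower in limma. Among neutrophil genes 14 of 15 tested rose. Their summed intensity was 30760 to 39326 in CBS-KO, against 1678 to 3440 in WT, where 6 of the 15 averaged less than the filter level. In each of the monocyte, erythroid and dendritic cell lists, 1 tested gene averaged less than that level in WT. Among monocyte and macrophage genes 11 of 13 rose (18878 to 24701 in CBS-KO, against 4547 to 6669 in WT), and among erythroid genes 9 of 9 (28060 to 54598, against 5902 to 11260). Among dendritic cell genes 4 of 10 rose (3835 to 6484, against 2092 to 2855), and among NK cell genes 4 of 9 rose and 1 fell (9182 to 13523, against 4209 to 5968). B cell genes had 1 of 9 higher (9464 to 25596, against 9393 to 13254), and averaged -0.23, 1.10 and -0.68 log2 units from the WT mean in CBS-KO 1 to 3, so CBS-KO 2 alone was high. Of the CD4 T cell genes that check the labelled cell type, 5 of 13 were lower and 0 higher in limma (36116 to 57691 in CBS-KO, against 69388 to 74654 in WT). Cd4 itself was present on all arrays, with 7037, 8403 and 5735 in CBS-KO 1 to 3, against 10615, 10970 and 9622 in WT 1 to 3. Leaving out WT 2 left 6 neutrophil, 0 monocyte, 2 erythroid and 0 CD4 T cell genes past the threshold, WT 1 left 6, 1, 3 and 0, and CBS-KO 1 left 7, 4, 2 and 0. Leaving out CBS-KO 2 instead gave 15, 11, 9 and 13. All 13 CD4 T cell genes were below the WT mean, with a median log2 difference of -0.74. The NK cell and dendritic cell lists had 0 genes called without WT 2, and the list of B cell genes had 1 higher and 3 lower without CBS-KO 2. Their part in the members' differences was not tested, and in bulk RNA fewer cells of a type and less RNA per cell cannot be told apart.

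Array by array, the members that were higher could be set beside these lists. Relative to the WT mean, Ifi205 was higher by 3.28, 3.52 and 2.28 log2 units in CBS-KO 1 to 3 and Ifi207 by 2.59, 2.85 and 2.17, beside 1.68, 2.18 and 1.75 for the monocyte and macrophage list and 3.54, 3.51 and 3.11 for the neutrophil list. Within the WT group, WT 3 had the highest values of Ifi205 and Ifi207. Lyz2, the lysozyme of myeloid cells, had 272, 415 and 884 in WT 1 to 3. It is 1 gene of the monocyte and macrophage list, and the WT order of the other genes is not given here. A link between Lyz2 and the members was not tested.

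The members that were lower could be set beside the CD4 T cell list, which averaged -0.72, -0.39 and -1.11 against the WT mean for CBS-KO 1 to 3. Subtracting that mean, a quantity chosen after the values were seen, left -1.77, -1.59 and -1.07 for Ifi214, -1.01, -1.07 and -0.90 for Ifi206 and -0.76, -0.66 and -0.82 for Ifi213. These 3 genes were lower than the CD4 list in every CBS-KO array. They had the largest falls of a family selected on these same differences. The subtraction therefore restates the differences, and a cause was not tested. For Ifi203 the same subtraction left 0.26, 0.08 and 0.10, and for Aim2 0.50, 0.25 and 0.43, so neither lay below the CD4 list on any CBS-KO array. Ifi209 and Ifi208 were in between, with -0.21, -0.46 and -0.38 for Ifi209 and -0.32, -0.56 and -0.44 for Ifi208.

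**Figure D4:**
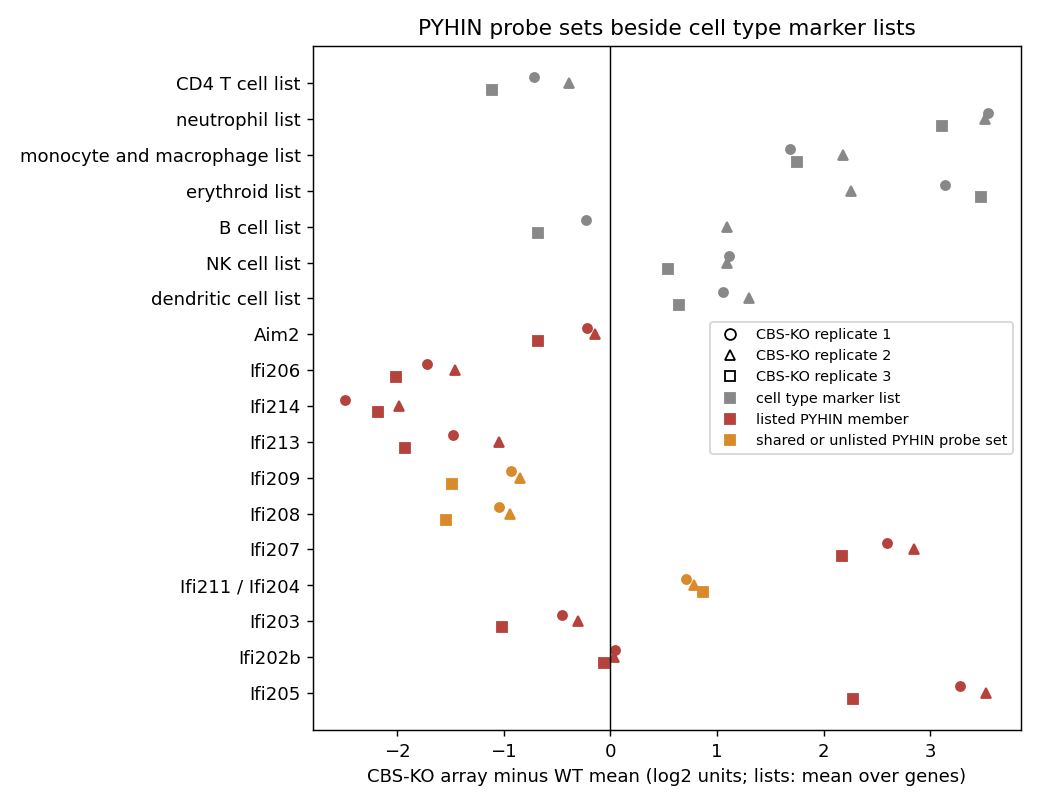
Log2 difference of each CBS-KO array from the WT mean for 7 cell type marker lists (mean over their genes) and for each PYHIN probe set. Symbols give the CBS-KO replicate and colours separate lists, listed members and shared or unlisted PYHIN probe sets. The CD4 T cell list lies between -1.11 and -0.39, and Ifi214, Ifi206 and Ifi213 lie below it on every array. Ifi207 and Ifi205 lie above 0, as do the neutrophil, monocyte, erythroid, NK cell and dendritic cell lists.

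Across 13861 other probe sets that name 1 gene, the profiles most like that of Ifi205 over the 6 arrays were those of Tgfbi, Ccl6 and Mmp8, with root mean square distances of 0.23, 0.25 and 0.27 log2 units. Tgfbi encodes an extracellular matrix protein, Ccl6 a chemokine of myeloid cells and Mmp8 the neutrophil collagenase, and their log2 differences were 3.01, 2.74 and 3.35. The WT intensities of Mmp8, at 36.7 to 50.5, lay below the filter level, so the size of its difference depends on the unknown background. The profiles most like that of Ifi214 were those of Oasl2, Lypd6b and Gm4759, with distances of 0.16, 0.18 and 0.24 and log2 differences of -2.29, -2.17 and -1.98. The distance uses the same arrays for every gene, so it describes likeness in these 6 arrays only.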

How the data were processed

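RNA of 3 CBS-KO and 3 WT samples was hybridised to Affymetrix arrays. The authors deposited 1 linear intensity per probe set and array, 34760 in all; how they corrected background, normalized and summarised probes is not stated in the labels, so any centring is unknown. Per the labels' protocols, cRNA was biotinylated from total RNA. The scale was read from the values, and 0 further columns of values were left out. Genes were named from the platform annotation (21640 probe sets name 1 gene, 1321 several, 11799 none); GRCm38.p6 symbols for 21553 matched identifiers changed 0 names.

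Values were log2(intensity + 16), and 20856 probe sets with a mean above the 40th percentile were tested in limma 3.58.1 under R 4.3.3 (trended eBayes, two-sided, CBS-KO minus WT, Benjamini-Hochberg adjusted over all of them, threshold 0.05). Array medians differed little, so no shift was applied. A gene in a list is its brightest tested probe set. Genes named by rule were every member and further PYHIN gene, up to 6 called genes of smallest p per list, called neighbours and the 3 most similar profiles. Cadm3, Ackr1, Exo1, Isg20, Cgas, Casp1, Cd4 and Lyz2 were named outside that rule, as were the check genes Xist, Eif2s3y and Cbs. Members and lists were chosen with earlier results of these data known. The alternatives tried were an offset of 1 or 64, quantile normalization, equal array medians, a filter at the 60th percentile or none, other variance models, the replicate number as a block, probe sets that name 1 gene, a term for arrays with Y-linked signal, and each array left out. P-values measure the spread between these arrays. Promoters came from RefSeq and were aligned with Biopython 1.88; figures used matplotlib 3.10.9 in Python 3.11.15. The fit was first tested on simulated data with known differences.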

Additional observations from a re-analysis of the deposited data

How the results depend on the processing

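None of the members' log2 differences changed sign in the 17 alternative fits that could give them, 168 values in all with the shared and unlisted PYHIN probe sets; 161 moved by less than 1 SD, and the other 7 came from the term for Y-linked signal, where the estimate rests on CBS-KO 3. Counts of calls moved more. With no filter 602 probe sets were higher and 524 lower of all, and 0 neighbours were higher, 0 DNA sensing genes lower, 0 inflammasome genes higher and 1 interferon signalling gene higher. With the term for Y-linked signal 2309 were higher and 2667 lower of all, 5 members were lower, 4 neighbours higher and 1 lower, 5 DNA sensing genes lower, 0 inflammasome genes higher and 3 lower, 0 interferon signalling genes higher and 8 lower, and 2 interferon-induced genes higher. After quantile normalization, with a common median and with an offset of 1, 2 neighbours were higher, and 5 over probe sets that name 1 gene. No inflammasome gene (0) was higher with the filter at the 60th percentile and 1 with an offset of 64. In the replicate block fit, 4 members were lower, 2 neighbours were higher, 2 inflammasome genes lower and 0 interferon signalling genes higher; the cause was not tested in any of these. The deviations of same-numbered arrays correlated at 0.06, 0.16 and 0.11. Arrays with unlike numbers were not compared, so these values cannot decide whether the replicate numbers pair arrays. The replicate block fit called 1169 probe sets higher and 924 lower. When each array was left out in turn, the counts ran from 54 to 3396 higher and from 19 to 3031 lower over all probe sets, from 1 to 2 higher and from 1 to 4 lower among members, from 0 to 5 higher and from 0 to 1 lower among neighbours, from 0 to 3 higher and from 0 to 9 lower among interferon signalling genes, from 0 to 2 higher and from 1 to 18 lower among interferon-induced genes, from 0 to 3 higher and from 0 to 6 lower among DNA sensing genes, and from 0 to 4 higher and from 0 to 3 lower among inflammasome genes. The signal of Ifi202b lies near the floor of the table, and the background that limits it and the WT level of Ifi205 is unknown.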
